A study of Mus musculus with 4 samples.

Results

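Matrix metalloproteinases and their tissue inhibitors were followed in RNA of ear Langerhans cells, epidermal antigen-presenting cells, isolated from wild-type mice. Imiquimod, an agonist of Toll-like receptor 7 whose topical use inflames the skin, was compared with Vaseline, with 2 libraries for each treatment. The 10 genes were Mmp9, Mmp2, Mmp8, Mmp13, Mmp3, Mmp10, Mmp12, Mmp14, Timp1 and Timp2, out of 55487 in the count table, and each had 1 row and passed the filter on low counts. They were chosen by family with the measured differences between these same treatments already in view, so their values are a description and carry no p-value. Strain, age, sex, dose and length of treatment are not given in the sources used here, nor is it stated whether the 2 libraries of a treatment came from separate animals, so p-values given for other genes measure the spread between these libraries, which may be technical. In the labels both Vaseline libraries carry the letter code XZ, and the imiquimod libraries carry AU and WY. What the codes stand for is not given, and it cannot be told apart from the treatment.

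Matrix metalloproteinases are zinc enzymes made as inactive precursors, which are activated when the propeptide is cut off. Together they break down collagens, gelatin, elastin and the proteins of the basement membrane, and they release growth factors and cytokines from the matrix. TIMPs bind the active enzymes and block them. In skin, gelatinases are known for opening the basement membrane to Langerhans cells that leave the epidermis, and stromelysins and collagenases for keratinocyte movement and wound repair.

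Library totals ran from 14902782 to 76028955 counts. Levels are given as CPM, the usual depth-normalised count, with library totals scaled by TMM factors. The factors ran from 0.598 to 1.66. Reads at olfactory and vomeronasal receptor genes, which have little known use in skin, gave a background of 0.160 to 0.508 CPM per exonic kilobase in Vaseline 1, Vaseline 2 and imiquimod 1 and of 0.778 in imiquimod 2. Cd207, the gene of langerin, was detected in every library, at 2255 and 6883 CPM with Vaseline and 1201 and 574.7 CPM with imiquimod. Krt14, a keratin of basal keratinocytes, was higher than Cd207 in every library, at 5560 and 7505 CPM with Vaseline and 6502 and 1726 CPM with imiquimod, so the RNA was not that of Langerhans cells alone. In such bulk samples, fewer cells of a type and less RNA per cell cannot be told apart.

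The largest fitted differences among the 10 genes were those of Mmp9, which was lower with imiquimod, and Mmp8, which was higher. The 2 treatments did not overlap in 5 of the 10 genes, where 51.5% of all genes tested did not overlap. Mmp8 and Mmp13 were higher in both imiquimod libraries (30.5% of all genes tested), and Mmp9, Mmp12 and Timp2 were lower in both (20.9%). Since the genes were picked from this contrast, nothing is read from these counts. Over the 10 genes the median log2 fold change of imiquimod over Vaseline was -0.51, and over all genes tested it was 0.41. The comparison depends on the level, taken as the mean over the 4 libraries of each library's ratio to its own background. That background was lowest in Vaseline 2, at 0.160, so the mean weighs Vaseline 2 most and favours genes high with Vaseline. Of the 10 genes, 9 reached 5 times the background. The 14403 tested genes that did so had a median of -0.69, below that of the 10, while the 25036 weaker ones had 0.92. These 2 medians are thus partly set by the filter. The median of all genes also moved with the scaling, to 0.16 with RLE factors, 0.76 with upper-quartile factors and 1.30 on library totals alone, and that of the 10 genes moved with it to -0.82, -0.12 and 0.42.

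**Figure D1:**
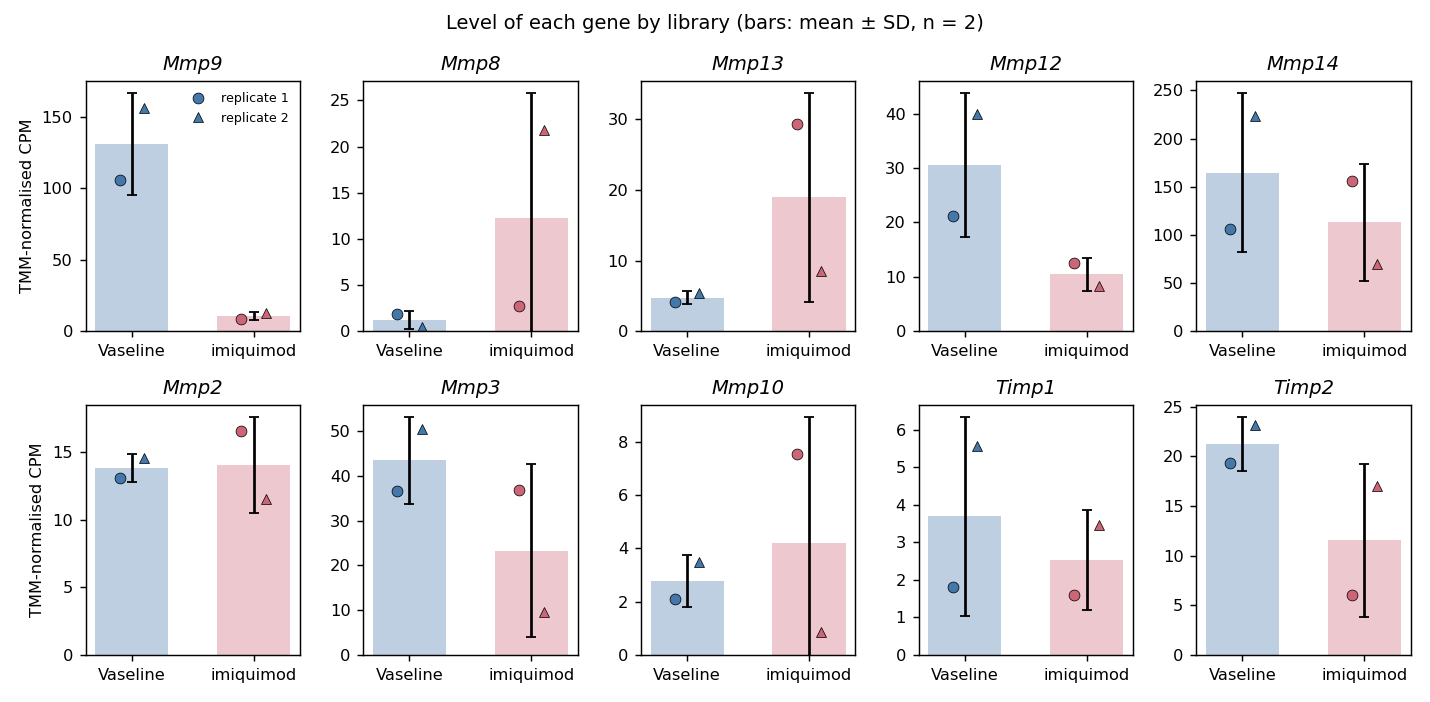
TMM-normalised CPM (vertical axes, linear, from 0) of the 10 genes in the Vaseline and imiquimod libraries; points are single libraries, bars are means and error bars SD of 2 libraries, cut at 0 where they would pass below it. Mmp9 stood at 106 and 156 CPM with Vaseline and at 8.88 and 12.6 CPM with imiquimod, while the imiquimod levels of Mmp8, Mmp13, Mmp3 and Mmp10 differed between the 2 libraries by 3.46-fold to 8.91-fold.

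The gelatinases Mmp9 and Mmp2 cut denatured collagen and type IV collagen of the basement membrane. Mmp9 (ENSMUSG00000017737; GRCm38 chromosome 2, 164940780 to 164955850, plus strand) had 4232 and 7097 counts with Vaseline but only 139 and 433 counts with imiquimod. These counts gave 106 and 156 CPM with Vaseline and 8.88 and 12.6 CPM with imiquimod. Both imiquimod libraries lay far below both Vaseline libraries, and the 2 libraries of a treatment differed by 1.48-fold with Vaseline and 1.42-fold with imiquimod. The mean was 131 ± 35.8 CPM with Vaseline and 10.8 ± 2.66 CPM with imiquimod (SD, n = 2 each), a fitted 12.03-fold difference (log2 fold change -3.59, SE 0.76). Mmp9 was 75.6 and 277 times the background in Vaseline 1 and 2 and still 4.94 and 4.59 times it in imiquimod 1 and 2. Its log2 fold change was negative in all 15 settings run, from -3.98 to -2.65.

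Mmp2 (ENSMUSG00000031740; chromosome 8, 92827291 to 92853420), which fibroblasts are known to make, showed no such difference. It had 13.1 and 14.6 CPM with Vaseline and 16.6 and 11.6 CPM with imiquimod. The imiquimod libraries lay on either side of the Vaseline libraries, and the log2 fold change was 0.01 with an SE of 0.59. Its sign turned with the scaling, to -0.25 with RLE factors and 0.81 on library totals alone.

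Mmp8, Mmp10, Mmp3, Mmp12 and Mmp13 lie in 1 cluster on chromosome 9, within 296 kb from 7272514 to 7568485, with Mmp1a between Mmp3 and Mmp10, and differed in how they followed treatment and library. The stretches around their RefSeq start sites (GRCm38.p6, plus strand, 250 bases before to 50 after the start) are shown because 4 of the 5 genes share a motif there that Mmp8 lacks. Capitals mark each match to TGANTCA, the element bound by AP-1 factors such as Fos and Jun. Of the 2 start sites given for Mmp12, the one with the match is shown.
Mmp13, chr9:7272264-7272563: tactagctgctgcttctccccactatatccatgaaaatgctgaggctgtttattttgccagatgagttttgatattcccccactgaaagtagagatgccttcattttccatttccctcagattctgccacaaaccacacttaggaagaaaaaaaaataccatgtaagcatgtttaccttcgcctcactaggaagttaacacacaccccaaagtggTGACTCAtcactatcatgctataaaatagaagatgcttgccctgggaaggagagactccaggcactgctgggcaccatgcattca
Mmp12, chr9:7347124-7347423: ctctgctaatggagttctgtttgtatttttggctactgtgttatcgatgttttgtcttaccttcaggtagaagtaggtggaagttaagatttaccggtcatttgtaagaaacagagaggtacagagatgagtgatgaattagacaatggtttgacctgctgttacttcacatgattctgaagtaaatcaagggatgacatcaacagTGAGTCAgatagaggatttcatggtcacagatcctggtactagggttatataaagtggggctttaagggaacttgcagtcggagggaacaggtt
Mmp3, chr9:7445572-7445871: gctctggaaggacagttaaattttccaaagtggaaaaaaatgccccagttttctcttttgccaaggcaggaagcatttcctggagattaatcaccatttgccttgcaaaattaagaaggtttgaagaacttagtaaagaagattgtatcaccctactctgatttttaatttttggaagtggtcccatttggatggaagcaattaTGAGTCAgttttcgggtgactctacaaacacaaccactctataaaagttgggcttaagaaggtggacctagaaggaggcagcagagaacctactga
Mmp10, chr9:7502092-7502391: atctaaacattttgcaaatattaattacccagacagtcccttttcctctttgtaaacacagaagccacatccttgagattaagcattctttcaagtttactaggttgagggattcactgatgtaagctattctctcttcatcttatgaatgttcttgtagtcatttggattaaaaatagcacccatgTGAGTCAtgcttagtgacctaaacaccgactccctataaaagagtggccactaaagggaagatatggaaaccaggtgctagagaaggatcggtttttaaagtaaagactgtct
Mmp8, chr9:7558179-7558478: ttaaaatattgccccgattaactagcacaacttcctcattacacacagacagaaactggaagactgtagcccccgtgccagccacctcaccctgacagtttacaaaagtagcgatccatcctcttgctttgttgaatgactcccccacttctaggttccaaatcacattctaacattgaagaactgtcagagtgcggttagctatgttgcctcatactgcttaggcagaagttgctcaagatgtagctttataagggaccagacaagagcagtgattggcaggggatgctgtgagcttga

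The match began at -35 in Mmp13, -44 in Mmp12, -46 in Mmp3 and -63 in Mmp10, counted from the start site. TGANTCA reads as the same motif on both strands. It was found in 4 of the 9 windows of the 8 genes that the RefSeq table held, and in 7.81% of all 32851 windows of that table. The same 4 windows held TATAAA on the strand shown, as did 8.32% of all windows. AGGAAG, the core bound by ETS factors, was found on either strand in 6 of the 9 windows and in 35.4% of all windows, and no match overlapped a match of another motif. In Timp2, Timp1, Mmp14 and Mmp8 the letters TGANTCA were not in the window searched. Matches are a description of sequence and do not show binding. No promoter of Mmp9 or Mmp2 is shown.

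The collagenases Mmp8 and Mmp13 cut fibrillar collagen, and Mmp8 is stored in neutrophil granules. Mmp8 (ENSMUSG00000005800; chromosome 9, 7558456 to 7568485) had 75 and 23 counts with Vaseline and 43 and 747 with imiquimod 1 and 2. Its level was 1.87 and 0.506 CPM with Vaseline and 2.75 and 21.8 CPM with imiquimod 1 and 2. Only imiquimod 2 stood apart: the other 3 libraries lay at 1.31 to 2.23 times the background, and imiquimod 2 at 11.6 times. The log2 fold change was 3.45 (SE 0.69) with all libraries and 1.26 without imiquimod 2. Summed neutrophil markers were also highest there, at 308 CPM, against 96.1 CPM in imiquimod 1 and 30.6 and 64.6 CPM with Vaseline. Most of that sum came from S100a9, Lcn2 and S100a8, at 152, 50.2 and 48.1 CPM in imiquimod 2. Of the 13 neutrophil markers, 11 had positive log2 fold changes, where 60.6% of all genes tested were positive. Only 5 of the 13 reached 5 times the background, and of all tested genes under it 85.9% were positive, so nothing is read from that count. S100a8 and Lcn2 passed the test as higher (adjusted p = 0.0193 and 0.000398 by edgeR), where 0.0634% of all genes tested did. None of the 13 was at 0 in all libraries. The 2 negative ones were Mpo and Elane. Mpo had 11.5 and 8.98 CPM with Vaseline and 4.79 and 5.72 CPM with imiquimod. Elane, which encodes neutrophil elastase, had 0 counts in Vaseline 2 and imiquimod 1. Ly6g was weak in every library, at 1.37 and 1.23 CPM with Vaseline and 1.85 and 1.96 CPM with imiquimod. The part of neutrophil RNA in the Mmp8 level was not tested.

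Mmp13 (ENSMUSG00000050578; chromosome 9, 7272514 to 7283331) had 165 and 244 counts with Vaseline and 460 and 291 counts with imiquimod. Its level was 4.12 and 5.37 CPM with Vaseline and 29.4 and 8.49 CPM with imiquimod. Both imiquimod libraries lay above both Vaseline libraries, with imiquimod 1 the higher by 3.46-fold. The means were 4.74 ± 0.886 and 18.9 ± 14.8 CPM (SD, n = 2 each), and the log2 fold change was 1.96 (SE 0.62). It was positive in all 15 settings, from 0.76 without imiquimod 1 to 2.65 on library totals alone.

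The stromelysins Mmp3 and Mmp10 cut proteoglycans, laminin and fibronectin and activate other metalloproteinases. Mmp3 (ENSMUSG00000043613; chromosome 9, 7445822 to 7455975) had 36.6 and 50.4 CPM with Vaseline and 36.9 and 9.57 CPM with imiquimod 1 and 2. Imiquimod 1 lay within the range of the Vaseline libraries, and imiquimod 2 alone was low. The log2 fold change was -0.93 (SE 0.62), and it ran from -2.26 without imiquimod 1 to -0.23 without imiquimod 2. Mmp10 (ENSMUSG00000047562; chromosome 9, 7502352 to 7510240) had 84 and 158 counts with Vaseline and 118 and 29 counts with imiquimod. Its levels were 2.10 and 3.48 CPM with Vaseline and 7.54 and 0.846 CPM with imiquimod 1 and 2, the last at 0.632 times the background. The imiquimod libraries thus held both the highest and the lowest level of Mmp10, 8.91-fold apart, and its log2 fold change of 0.40 (SE 0.70) became -1.81 without imiquimod 1 and 1.42 without imiquimod 2.

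Mmp12, the macrophage elastase (ENSMUSG00000049723; chromosome 9, 7344381 to 7369499), shares 2.17% of its exonic bases with Mmp1b. It had 848 and 1813 counts with Vaseline and 197 and 284 counts with imiquimod. Its level was 21.2 and 39.9 CPM with Vaseline and 12.6 and 8.29 CPM with imiquimod. Both imiquimod libraries were lower than both Vaseline libraries, by a log2 fold change of -1.57 (SE 0.62). In imiquimod 2 its level was 1.47 times the background, and the log2 fold change was -0.71 on library totals alone.

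Mmp14 is a membrane-bound metalloproteinase that activates pro-Mmp2 in a complex with Timp2. Mmp14 (ENSMUSG00000000957; chromosome 14, 54431612 to 54445364) had 4255 and 10135 counts with Vaseline and 2437 and 2405 counts with imiquimod, or 106 and 223 CPM against 156 and 70.2 CPM. The treatments overlapped, and the 2 libraries of each differed by 2.10-fold with Vaseline and 2.22-fold with imiquimod. The log2 fold change of -0.55 (SE 0.76) was smaller than its error and became 0.25 on library totals alone.

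Timp1, the inhibitor of most secreted metalloproteinases, and Timp2, which also serves as the link between Mmp14 and pro-Mmp2, were at modest levels. Timp1 (ENSMUSG00000001131; chromosome X, 20870166 to 20874735) had 73 and 253 counts with Vaseline and 25 and 119 with imiquimod. Its levels of 1.82 and 5.57 CPM with Vaseline and 1.60 and 3.47 CPM with imiquimod overlapped. The log2 fold change was -0.46 (SE 0.70) and turned to 0.58 on library totals alone and to 0.48 without Vaseline 2. Timp2 (ENSMUSG00000017466; chromosome 11, 118301069 to 118355740, minus strand) had 19.3 and 23.2 CPM with Vaseline and 6.07 and 17.0 CPM with imiquimod 1 and 2. Both imiquimod libraries were below Vaseline, imiquimod 2 by little, and the log2 fold change was -0.84 (SE 0.59), or 0.15 on library totals alone.

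**Figure D2:**
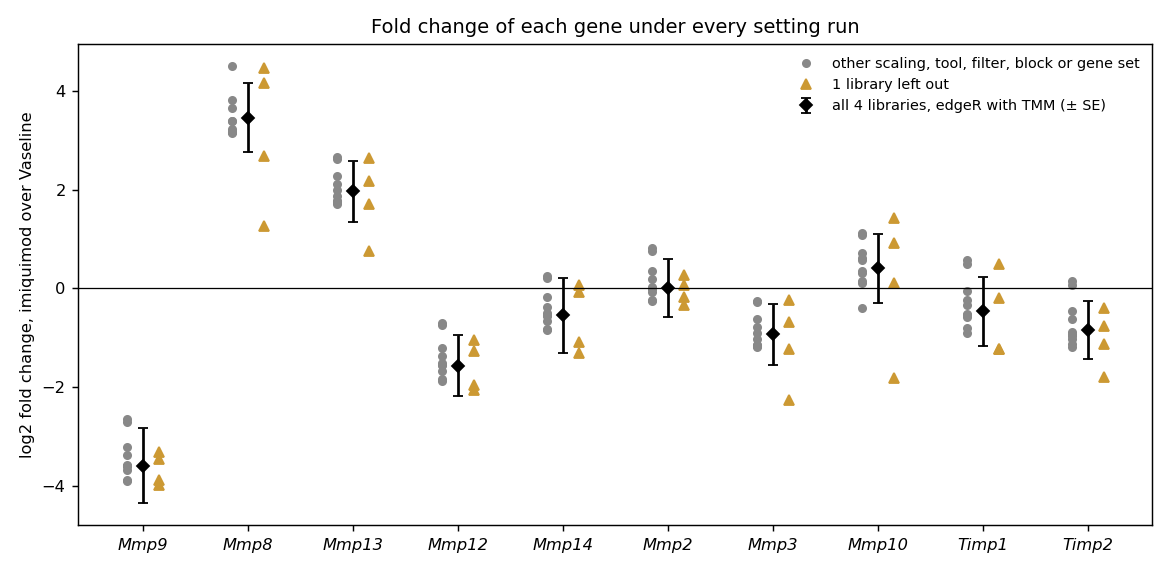
Log2 fold change of imiquimod over Vaseline (vertical axis) of each gene; diamonds show edgeR with TMM factors on all 4 libraries with SE bars, grey circles other scalings, tools, filters, the replicate block or gene sets, and triangles fits with 1 library left out. Mmp9, Mmp12 and Mmp3 were negative and Mmp8 and Mmp13 positive in every setting in which they were fitted, and the other 5 genes crossed 0.

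Levels of different genes were compared per exonic kilobase. With Vaseline the order was led by Mmp9 at a mean of 37.0 CPM per kb, Mmp14 at 27.6 and Mmp3 at 24.1. Mmp14 had 17.8 and 37.4 CPM per kb in the 2 Vaseline libraries, so its level overlapped those of Mmp9 (29.8 and 44.1) and Mmp3 (20.3 and 28.0). Timp2 at 5.46, Mmp12 at 4.22, Timp1 at 4.16 and Mmp2 at 4.11 CPM per kb followed, and each overlapped with the next in this order, while Timp2 (4.96 and 5.96) and Mmp2 (3.89 and 4.32) did not overlap. Mmp13 at 1.78 and Mmp10 at 1.62 overlapped as well, and Mmp8 was lowest at 0.490 CPM per kb. With imiquimod the order of the means was Mmp14 at 18.9, Mmp3 at 12.9, Mmp13 at 7.09 and Mmp8 at 5.06 CPM per kb. Mmp2 at 4.18, Mmp9 at 3.04, Timp2 at 2.96, Timp1 at 2.85, Mmp10 at 2.43 and Mmp12 at 1.44 CPM per kb came below them. The place of Mmp8 rested on imiquimod 2, where it had 8.99 CPM per kb. In imiquimod 1 it had 1.13 CPM per kb, the lowest of all the genes compared. Mmp8 thus overlapped with every gene below it in this order. Mmp14 and Mmp3 overlapped with imiquimod, and so did Mmp3, Mmp13 and Mmp8, since these genes differed several-fold between the 2 libraries.

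Ratios of 2 genes within a library do not depend on the scaling between libraries. Mmp9 over Timp1, per exonic kilobase, was 14.5 and 7.04 with Vaseline and 1.40 and 0.913 with imiquimod. Mmp9 over Timp2 was 6.01 and 7.41 with Vaseline and 1.61 and 0.818 with imiquimod. Mmp9 message thus exceeded that of either inhibitor by 6.01 or more in both Vaseline libraries, and the imiquimod ratios lay between 0.818 and 1.61. Mmp9 over Mmp14 was 1.67 and 1.18 with Vaseline and 0.0961 and 0.303 with imiquimod. Mmp14 over Timp2 showed no split by treatment, at 3.59 and 6.29 with Vaseline and 16.8 and 2.70 with imiquimod.

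Of the 10 ratios computed, Mmp13 over Mmp3, a gene of the same cluster, differed least between the libraries of a treatment. This ratio, per exonic kilobase, was 0.0759 and 0.0718 with Vaseline and 0.536 and 0.598 with imiquimod. It was chosen for display after the values were seen and was not tested. Mmp10 over Mmp3 was 0.0600 and 0.0722 with Vaseline and 0.214 and 0.0925 with imiquimod 1 and 2.

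Levels were also set against summed marker genes of the cell types that the samples could hold, again within each library, with the choice of list for each gene made after its values were seen. Per 1000 counts of 10 keratinocyte markers, Mmp3 had 1.77 and 2.07 counts with Vaseline and 1.80 and 1.79 with imiquimod. Its low level in imiquimod 2 thus went with a low sum of keratinocyte markers, which was 20550 to 24289 CPM in the other 3 libraries and 5357 CPM there. On the same base Mmp13 had 0.200 and 0.221 counts with Vaseline and 1.43 and 1.59 with imiquimod, a 7.17-fold difference of means. Mmp10 had 0.102 and 0.143 counts with Vaseline and 0.367 and 0.158 with imiquimod. None of the 10 keratinocyte markers was at 0, and none passed the test in either direction (0 at an unadjusted p under 0.05 by edgeR). The SE of the log2 fold change was 2.19 for Krt14 and 2.01 for Krt5, so the lack of calls does not show that they were unchanged. Whether keratinocytes were the source of these transcripts was not tested.

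Per 1000 counts of 11 Langerhans cell markers, Mmp9 had 4.48 and 2.53 counts with Vaseline and 0.918 and 1.75 with imiquimod. The treatments did not overlap on this base either, but the difference of means was 2.63-fold. Cd74, Mfge8 and H2-Ab1 made up most of this base in every library. Cd207 alone had 6883 CPM in Vaseline 2 and 574.7 CPM in imiquimod 2, where Mmp9 had 156 and 12.6 CPM. Set against Cd207 alone, Mmp9 was thus close to equal in those 2 libraries. The summed Langerhans cell markers were themselves lower with imiquimod, at 23601 and 61785 CPM with Vaseline and 9672 and 7228 CPM with imiquimod, and 10 of the 11 had negative log2 fold changes, none past the adjusted threshold and 3 at an unadjusted p under 0.05 by edgeR. Of all genes tested 60.6% were positive, and of those at 5 times the background, which all 11 reached, 16.7%. That level weighs Vaseline 2 most, so the second share leans negative through the filter. Nothing is read from the count of 10 or from the 3. The SE was large for the most abundant markers, at 2.82 for Cd74 (log2 fold change -2.46) and 2.32 for Mfge8 (-2.74). The lack of calls thus does not show that these markers were unchanged. Mmp12 had 0.897 and 0.646 counts per 1000 with Vaseline and 1.30 and 1.15 with imiquimod, so on this base it was 1.59-fold higher with imiquimod although its CPM was lower. Against the other 4 marker lists its mean was lower with imiquimod, at 0.809 of the Vaseline mean for keratinocyte, 0.121 for neutrophil, 0.699 for fibroblast and 0.532 for monocyte and macrophage markers. On that last base the treatments did not overlap, at 44.6 and 62.1 counts per 1000 with Vaseline and 35.5 and 21.3 with imiquimod. The 14 monocyte and macrophage markers summed to 475 and 643 CPM with Vaseline and 354 and 390 CPM with imiquimod. Their log2 fold changes were split, with 7 positive and 7 negative. Per 1000 counts of neutrophil markers, Mmp8 had 61.1 and 7.84 counts with Vaseline and 28.6 and 70.7 with imiquimod, and the treatments overlapped. Of fibroblasts, which are known for Mmp2 and Timp2, the summed markers were low, at 56.0 and 165 CPM with Vaseline and 38.7 and 76.3 CPM with imiquimod. Of the 9 markers, 4 had positive and 5 negative log2 fold changes. Only Col3a1 passed as lower by edgeR, as 0.137% of all genes tested did. Its treatments overlapped, with 6.86 CPM in Vaseline 1 and 6.98 CPM in imiquimod 2. The part of changed cell makeup in any of these levels was not tested.

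**Figure D3:**
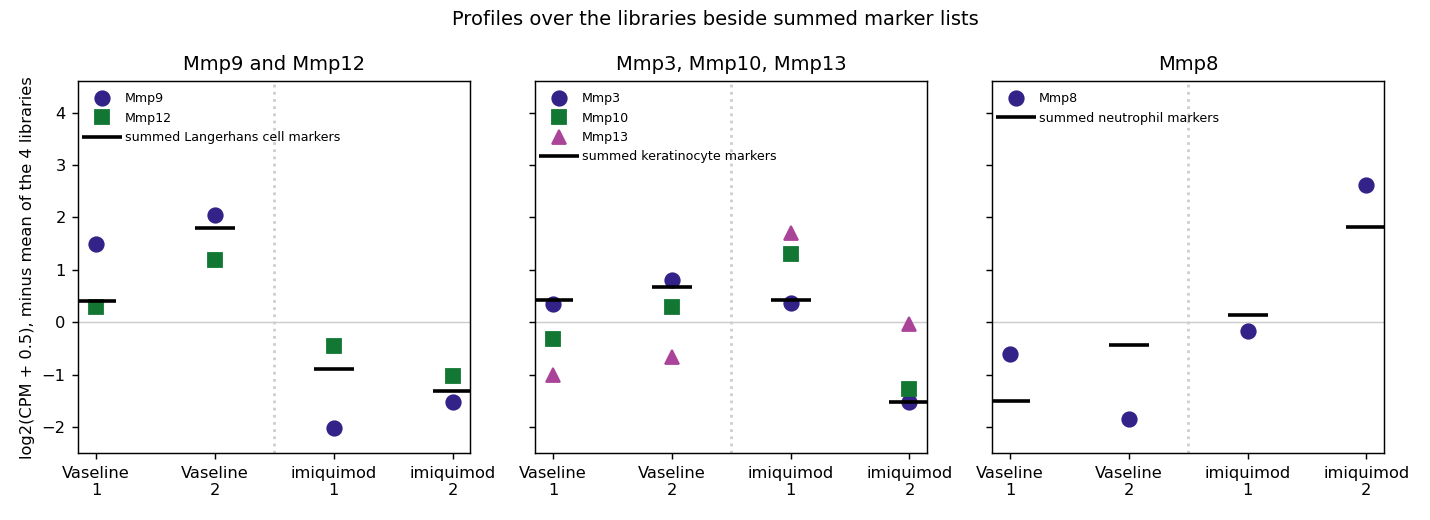
log2(CPM + 0.5) of each gene minus its mean over the 4 libraries (vertical axis), by library, with black bars for the summed CPM of a marker list treated the same way. Mmp9 and Mmp12 and the Langerhans cell markers lay above 0 in both Vaseline libraries and below it in both imiquimod libraries, Mmp3 lay close to the keratinocyte markers in every library, and Mmp8 was highest in imiquimod 2.

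**Figure D4:**
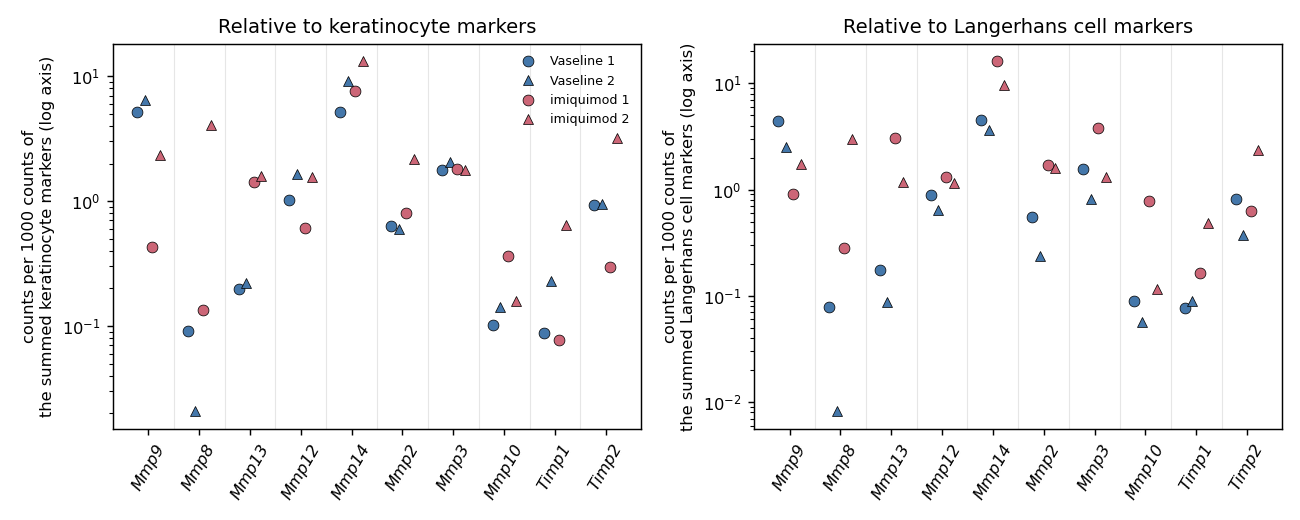
Counts of each gene per 1000 counts of the summed keratinocyte markers (left) or Langerhans cell markers (right) in each library, on log axes. Mmp3 sat between 1.77 and 2.07 in all 4 libraries on the keratinocyte base, and Mmp13 separated into 0.200 and 0.221 with Vaseline and 1.43 and 1.59 with imiquimod.

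The genes whose profiles over the 4 libraries lay closest to Mmp9 and Mmp8 were found by Euclidean distance between log2(CPM + 0.5) values centred on each gene's mean, among 12048 genes with a mean of at least 5 CPM. Nearest to Mmp9 were S100a4 at a distance of 0.533, Cyp4f37 at 0.538, Lgals1 at 0.609, Clec4f at 0.633 and Prkcb at 0.640. S100a4, a calcium-binding protein, had 207 and 365 CPM with Vaseline and 30.0 and 29.7 CPM with imiquimod. Lgals1, a lectin that binds galactosides, had 92.8 and 214 CPM with Vaseline and 10.48 and 19.8 CPM with imiquimod. Nearest to Mmp8 were Hdc at 0.970, Acod1 at 1.10, Slfn4 at 1.15, Saa3 at 1.19 and Cd300lf at 1.33. Cd300lf, an inhibitory receptor of myeloid cells, had 4.42 and 3.48 CPM with Vaseline and 5.11 and 23.8 CPM with imiquimod 1 and 2. With 4 libraries many genes share a profile, and the distances are a description.

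Other genes of the pathway were taken as 6 lists with 98 genes, of which 97 were tested. By the edgeR quasi-likelihood test, at an adjusted p threshold of 0.05, 1 rose and 1 fell with imiquimod. Of all 39439 genes tested 0.200% passed, 0.0634% higher and 0.137% lower. Without adjustment, 9 of the 97 had p under 0.05 in each direction, those called included. The same cut-off took in 3405 of all 39439 genes in the higher direction and 2010 in the lower. Nothing is read from the unadjusted counts, here or in the single lists below. Log2 fold changes were positive in 18 of the 58 genes that reached 5 times the background and in 34 of the 39 tested genes that did not. Over all genes tested these shares were 16.7% and 85.9%, and the background was highest in imiquimod 2. The level is a mean of ratios that weighs Vaseline 2 most, so genes high with Vaseline reach it more readily. These shares are thus partly set by the filter, and no link of direction and level is read from them. The part of the background in these positive values was not tested. Over all genes tested, whatever their level, 60.6% were positive and the median was 0.41. No direction is read from the counts of positive and negative values in the single lists below.

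Of 14 other metalloproteinases tested, none passed by edgeR (0 at an unadjusted p under 0.05), 9 had a positive and 5 a negative log2 fold change, and the median was 0.17. Mmp19, a metalloproteinase found in epidermis, had 35.9 and 84.1 CPM with Vaseline and 26.0 and 32.9 CPM with imiquimod (log2 fold change -1.02, SE 0.64, adjusted p = 0.424). The enamel protease Mmp20 had 1.51 and the brain-type membrane metalloproteinase Mmp24 had 1.00 (adjusted p = 0.377 and 0.420), at 1.02 and 3.13 times the background. Mmp1a, an interstitial collagenase, had 44 and 0 counts with Vaseline and 23 and 70 with imiquimod (adjusted p = 0.370), at 1.03 times the background.

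Of 7 further genes of inhibition, all had positive values, with a median of 1.38, and Spock2 rose. Only 2 of the 7 reached 5 times the background. Of all genes tested 60.6% were positive, and of those under that level 85.9%, so nothing is read from the count of positive values. Spock2 encodes testican-2, which is known to undo the block of membrane-type metalloproteinases by other testicans rather than to inhibit them. It had 262 and 188 counts with Vaseline and 835 and 242 with imiquimod (log2 fold change 2.47, SE 0.63, adjusted p = 0.0458 by edgeR). Imiquimod 1 alone stood apart, and without it the log2 fold change was 0.34 and the call was lost. The protease trap A2m had 1.47, the testican Spock1 1.38 and the inhibitor Timp4 1.41, each at under 2 times the background, and none passed (adjusted p = 0.317, 0.329 and 0.337). Timp3, the matrix-bound inhibitor, was the most abundant TIMP message by CPM per library, with 47.6 and 54.6 CPM with Vaseline and 70.7 and 35.1 CPM with imiquimod, and was named after its values were seen (log2 fold change 0.04, SE 0.65, adjusted p = 0.974).

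Among 20 activators and genes of the plasminogen system none passed by edgeR (2 higher and 2 lower unadjusted), 12 were positive and the median was 0.35. Plaur, the urokinase receptor, had 238 and 662 CPM with Vaseline and 111 and 106 CPM with imiquimod (log2 fold change -2.05, SE 0.93, adjusted p = 0.331). Plau, urokinase itself, had 122 and 348 CPM with Vaseline and 104 and 38.6 CPM with imiquimod (-1.73, SE 0.80, adjusted p = 0.338). Both were lower in both imiquimod libraries. Klk6, a kallikrein-related protease, had 2.42 and 0.792 CPM against 9.01 and 5.57 CPM (2.17, SE 0.69, adjusted p = 0.167).

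Among 17 ADAM and ADAMTS proteases none passed by edgeR (2 higher and 1 lower unadjusted), 10 were positive and the median was 0.45. Adam10, which sheds membrane proteins such as CD23, had 60.4 and 91.1 CPM with Vaseline and 40.1 and 20.98 CPM with imiquimod (log2 fold change -1.32, SE 0.66, adjusted p = 0.360). Adamts12, Adam28 and Adam12 had 1.37, 1.39 and 1.20 at 1.08, 0.796 and 1.42 times the background, and none passed (adjusted p = 0.338, 0.356 and 0.367).

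Among 18 substrates of the matrix and basement membrane 12 were negative and the median was -0.32, and Col3a1, a chain of fibrillar collagen, fell. Of the 18, 13 reached 5 times the background, a level at which all tested genes had a median of -0.69. Col3a1 had 6.86 and 51.3 CPM with Vaseline and 2.56 and 6.98 CPM with imiquimod (log2 fold change -2.53, SE 0.64, adjusted p = 0.0408 by edgeR). Imiquimod 2 lay above Vaseline 1, so the treatments overlapped, and without Vaseline 2 the log2 fold change was -0.53 and the call was lost. Sparc, Col7a1 and Col1a1, which encode a collagen-binding protein, the anchoring fibril collagen and a chain of type I collagen, had -1.52, -1.49 and -1.24 and did not pass (adjusted p = 0.289, 0.361 and 0.351).

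Among 21 inducers and transcription factors none passed by edgeR (1 higher and 2 lower unadjusted), 8 were positive and the median was -0.31. Of the 21, 20 reached 5 times the background. Among all tested genes that did so 16.7% were positive and the median was -0.69. Spi1, a transcription factor of myeloid cells, had 89.5 and 235 CPM with Vaseline and 41.3 and 33.8 CPM with imiquimod (log2 fold change -2.12, SE 0.75, adjusted p = 0.225). Il1a, an inducer of stromelysins and collagenases in skin, was higher in both imiquimod libraries, with 7.61 and 7.99 CPM against 26.4 and 19.9 CPM (1.56, SE 0.60, adjusted p = 0.278). Tgfb1, a growth factor that matrix proteases can release from its latent form, had -1.52 (adjusted p = 0.348). The AP-1 genes Fos and Jun, named after their values were seen because of the motif above, had log2 fold changes of -0.81 (SE 1.30, adjusted p = 0.724) and -0.03 (SE 1.49, adjusted p = 0.992).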

How the data were processed

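The authors deposited 1 table of unscaled counts, with a row for each gene and a column for each library. Per the submitters' processing notes, the authors used Trimmomatic, HISAT2, SAMtools and StringTie on GRCm38; versions, annotation, strand setting and the handling of multi-mapped reads are not given in the sources used here. Total RNA libraries were made with a stranded kit for small inputs, per the labels' protocols.

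The 2 treatments were compared with edgeR 4.0.16 (R 4.3.3) quasi-likelihood tests, two-sided, with TMM factors, filterByExpr defaults (minimum count 10, minimum total 15) and Benjamini-Hochberg adjustment over 39439 genes. The SE is the log2 fold change over the square root of F. CPM, exonic kilobases and positions used GENCODE vM21, overlaps bedtools 2.31.1. Promoters came from RefSeq on GRCm38.p6. The background is the median over 1491 receptor genes in each library, and a gene's level against it is the mean of its 4 library ratios unless a library is named. Intervals between libraries rest on 2 values each, and counts without molecular identifiers are not independent molecules.

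The 10 genes and all lists were chosen with earlier results of these data known. Named by rule were the 10 genes, up to 4 genes of smallest p per pathway list, the 2 most abundant markers per cell type and the 5 nearest profiles of Mmp9 and of Mmp8. Of the genes the rule named, 2 are not reported here. Of the marker lists, those of Langerhans cells, keratinocytes, neutrophils, fibroblasts and monocytes and macrophages bear on the text. The fit was tested on simulated data. Alternatives were other scalings and filters, DESeq2 1.42.0, limma-voom (limma 3.58.1), genes at 5 times the background, a replicate block, each library left out, and, added after seeing the data, edgeR's older quasi-likelihood form. The newer form was kept as the reported one after the number of calls under both had been seen, to follow an earlier processing of these data.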

Additional observations from a re-analysis of the deposited data

How the results depend on the processing

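Calls over all genes depended on nearly every choice. Against 25 higher and 54 lower, there were 41 higher with upper-quartile factors, 14 lower with RLE factors, 8 and 5 on library totals alone, 6 and 669 with DESeq2, 41 and 136 with limma-voom, 124 lower with a stricter filter and 3 and 5 with the older quasi-likelihood form, which was added after the data were seen. The newer form was chosen with both pairs of counts known. With no filter 0 and 0 genes passed by edgeR (3185 and 1996 had an unadjusted p under 0.05), and among genes above background 0 and 0 passed (771 and 690 unadjusted). Leaving out 1 library gave 8 to 2959 higher, the most without Vaseline 1, and 0 to 317 lower. With the replicate number as a block 1 gene was higher and 0 lower (1856 and 397 unadjusted). The labels do not say that a number pairs libraries. Deviations of same-numbered libraries had a correlation of -0.41, which with 2 libraries per treatment can neither show nor exclude a pairing.

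For the other genes of the pathway, 1 higher and 1 lower became 0 higher with RLE factors, library totals, DESeq2, no filter, genes above background, the block and the older form, and 0 to 5 with 1 library left out. Lower calls became 0 in those settings other than DESeq2, where 3 passed, and with upper-quartile factors and limma-voom, and 0 to 1 with 1 library left out. The median log2 fold change of the 10 genes was -0.51 and moved to 0.42 on library totals alone. It ran from -1.11 to 0.07 with 1 library left out and was 0.21 among genes above background, where Mmp8, at 4.26 times the background, was not fitted. Under the block the log2 fold changes of Mmp9 and Mmp8 were -3.60 and 3.16. The pathway genes named by rule kept their sign in each setting in which they were fitted; Timp3, Fos, Jun, Serpinb2 and Mmp25, named after their values were seen, were not followed over the settings. The cause of these shifts was not tested. Low counts limit Mmp8, Mmp10 and Timp1 most, with as few as 23, 29 and 25 counts in a library. The 23 counts of Mmp8 were in Vaseline 2, the deepest library, at 1.31 times the background. The 29 counts of Mmp10 were in imiquimod 2, at 0.632 times the background.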

Other observations

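Among pathway genes not described above, 2 were singled out after their values were seen, for their level. Serpinb2, an inhibitor of urokinase known in keratinocytes and macrophages, had 720 and 1224 CPM with Vaseline and 2172 and 369.8 CPM with imiquimod, for which edgeR gave a log2 fold change of 0.39 with SE 1.31 and adjusted p = 0.874. Its imiquimod libraries held both the highest and the lowest level, as those of Mmp10 did. Mmp25, a membrane-anchored metalloproteinase of leukocytes, had 31.7 and 78.4 CPM with Vaseline and 10.7 and 43.5 CPM with imiquimod, with -1.0 on the log2 scale, SE 0.63 and adjusted p = 0.427 by edgeR, and the treatments overlapped.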
